A study of Rattus norvegicus with 9 samples.

Results

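The 10 Wnt ligand genes described here (Wnt1, Wnt10a, Wnt10b, Wnt16, Wnt4, Wnt5a, Wnt5b, Wnt11, Wnt2b and Wnt9a) were measured by mRNA sequencing of rat bone, in tables of 23026 genes. They were chosen by measured values of these libraries: Wnt1 and Wnt10a because they were lower after ovariectomy and were higher again with treatment, and the others mostly because they were more abundant ligands. The values of Wnt1 and Wnt10a in those comparisons are therefore a description with no test. Of the 10 genes, 9 passed a filter on low counts and Wnt2b did not.

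The bone came from female Sprague–Dawley rats, bought at 8 weeks of age, in 3 groups of 3 libraries from separate animals. Sham rats had a mock operation and kept their ovaries. OVX rats lost both ovaries, a model of bone loss after estrogen withdrawal. OVX-AS-IV-High rats, also called treated rats here, had the same operation and, from 6 weeks after surgery, received astragaloside IV (AS-IV, a saponin of the herb Astragalus membranaceus) at 80 mg/kg by oral gavage every day for 8 weeks. The other groups received the carboxymethyl cellulose (CMC-Na) vehicle by gavage over those 8 weeks. Sham replicate 1 is labelled with 1% CMC-Na, replicate 2 with 2% and replicate 3 with 3%, while the methods of the study give 1% for all vehicle rats, and the 3 were kept as 1 group. RNA from bone can come from bone cells, marrow, fat and attached tissue, and fewer cells of a type cannot be told apart from less RNA per cell.

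Wnt ligands are secreted, lipid-modified glycoproteins that bind Frizzled receptors on nearby cells. With the co-receptors Lrp5 or Lrp6, ligands such as Wnt1, Wnt10a and Wnt10b stabilise β-catenin, which enters the nucleus and drives target genes with TCF/LEF factors. Others, among them Wnt5a, Wnt5b and Wnt11, act mostly through routes that do not need β-catenin. In bone, Wnt signals promote osteoblast formation, and Wnt16 is known for its part in cortical bone thickness.

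Promoter sequences were taken from RefSeq (GRCr8, 250 bases before and 50 after the start of transcription), which had an entry for 8 of the 10 genes. The 4 below belong to the pairs of ligands whose libraries are set beside each other in the results, Wnt1 with Wnt10a and Wnt9a with Wnt16. Capitals mark matches to an AP-1 motif (TGANTCA) or an estrogen response element half-site (GGTCA, which reads TGACC when it lies on the other strand). The TCF/LEF core CTTTGA was searched too, and all 3 motifs on both strands. All 4 windows are on the plus strand of GRCr8, that of Wnt1 at chr7:131817308-131817607, Wnt10a at chr9:83798344-83798643, Wnt9a at chr10:44593441-44593740 and Wnt16 at chr4:51786478-51786777.
Wnt1: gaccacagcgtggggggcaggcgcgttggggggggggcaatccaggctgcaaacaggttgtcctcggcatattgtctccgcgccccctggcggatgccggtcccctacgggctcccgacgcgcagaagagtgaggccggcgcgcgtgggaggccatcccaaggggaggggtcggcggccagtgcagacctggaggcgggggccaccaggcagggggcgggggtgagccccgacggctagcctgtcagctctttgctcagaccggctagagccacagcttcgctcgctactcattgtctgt
Wnt10a: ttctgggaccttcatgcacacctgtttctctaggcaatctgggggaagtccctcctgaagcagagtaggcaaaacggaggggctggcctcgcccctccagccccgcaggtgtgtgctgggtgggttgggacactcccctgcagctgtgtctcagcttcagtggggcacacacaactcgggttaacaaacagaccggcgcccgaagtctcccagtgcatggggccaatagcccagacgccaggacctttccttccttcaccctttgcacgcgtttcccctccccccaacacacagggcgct
Wnt9a: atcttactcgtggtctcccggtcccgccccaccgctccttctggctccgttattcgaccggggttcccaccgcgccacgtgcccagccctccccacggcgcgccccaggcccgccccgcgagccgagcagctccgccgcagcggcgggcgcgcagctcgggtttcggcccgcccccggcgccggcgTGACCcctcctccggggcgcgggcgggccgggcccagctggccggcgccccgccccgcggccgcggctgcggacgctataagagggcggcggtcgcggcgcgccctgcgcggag
Wnt16: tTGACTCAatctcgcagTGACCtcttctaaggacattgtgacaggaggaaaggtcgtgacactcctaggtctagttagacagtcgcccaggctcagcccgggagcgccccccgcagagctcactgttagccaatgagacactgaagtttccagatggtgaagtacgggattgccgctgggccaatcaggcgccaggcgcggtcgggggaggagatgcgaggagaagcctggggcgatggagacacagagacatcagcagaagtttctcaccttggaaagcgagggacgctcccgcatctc

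None of the 3 motifs was found in the windows of Wnt1 and Wnt10a. Wnt9a held 1 estrogen response element half-site, at -64 to -60 from the start. Wnt16 held 1 such half-site, at -233 to -229, and 1 AP-1 motif, at -249 to -243, which do not overlap. Over all 33469 rat promoters in the table, 16.1% held the TCF/LEF core, 40.5% the half-site and 7.33% the AP-1 motif. The 4 windows differed in base composition. Wnt9a was 80.7% G or C with 52 CpG dinucleotides, Wnt1 70.0% with 25, Wnt10a 61.3% with 11 and Wnt16 58.3% with 17, against a median of 51.7% and 7 CpG over all promoters.

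The libraries held between 34874880 and 37298250 counts. Levels of different genes are compared as FPKM, in which counts are scaled by transcript length and library size, and groups are compared on the counts. By mean FPKM over the 9 libraries, Wnt5b was the most abundant ligand (4.63 ± 1.04, SD, n = 9). Wnt10b (2.82 ± 0.834) and Wnt5a (1.89 ± 0.473) followed, then Wnt4 (1.38 ± 0.603), Wnt16 (0.997 ± 0.531), Wnt11 (0.827 ± 0.228) and Wnt9a (0.780 ± 0.334). Wnt10a (0.220 ± 0.185), Wnt1 (0.118 ± 0.0988) and Wnt2b (0.0479 ± 0.0371) were at the low end of the 10. The mean FPKM of Wnt5b over all libraries was 39.2 times that of Wnt1 and 21.0 times that of Wnt10a, but this pools groups that differ. It was 25.9 times that of Wnt1 in Sham, 157 times in OVX and 30.3 times in the treated group, and 15.3, 77.4 and 15.0 times that of Wnt10a.

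**Figure D1:**
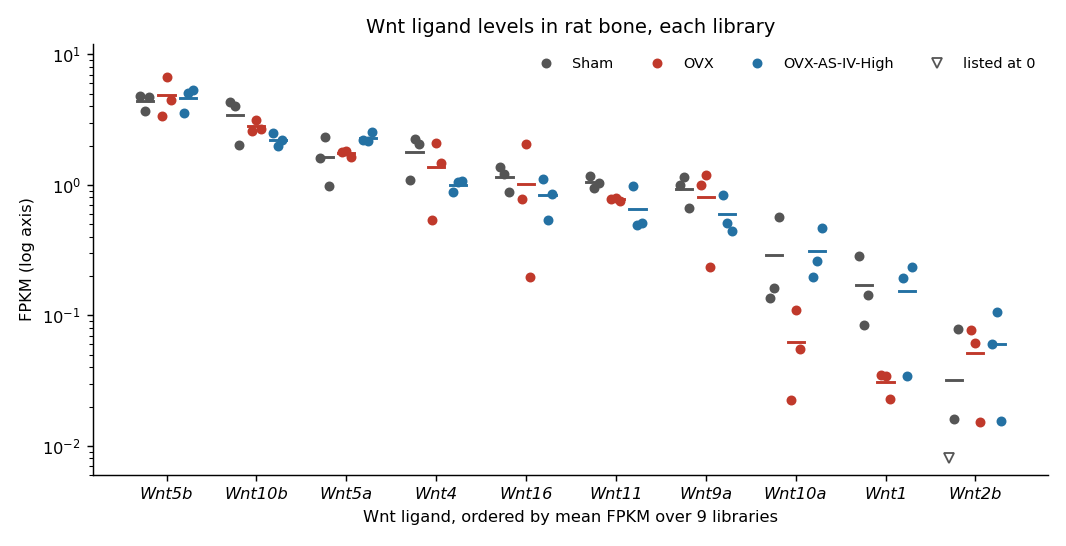
FPKM of the 10 Wnt ligands (log axis) in each of the 9 libraries, in grey for Sham, red for OVX and blue for OVX-AS-IV-High, with a short line at each group mean and an open triangle for a value listed at 0. Wnt5b lies between 3.38 and 6.70 in all libraries, while Wnt1 lies between 0.0230 and 0.284.

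For every pair of neighbours in this order the ranges over the libraries overlapped. Wnt5b was above Wnt10b in 8 of 9 libraries, Wnt10b above Wnt5a in 7, Wnt5a above Wnt4 in 7, Wnt4 above Wnt16 in 6, Wnt16 above Wnt11 in 7 and Wnt11 above Wnt9a in 5. Wnt11 and Wnt9a, whose means differed by a factor of 1.06, were thus not separated beyond their spread. Between Wnt9a and Wnt10a lay a ligand outside the 10, Wnt2, at 0.512 ± 0.259 FPKM, and between Wnt10a and Wnt1 lay Wnt6, at 0.195 ± 0.0546.

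Of the 19 Wnt ligand genes listed, 16 were in the tables, and their summed FPKM ranged from 11.8 to 18.7 per library. It was 15.5 ± 1.27 in Sham, 14.2 ± 3.90 in OVX and 13.8 ± 0.981 in the treated group (SD, n = 3 each), and the groups overlapped. Wnt5b, Wnt10b and Wnt5a together made up 64.6% of that sum over all libraries, and Wnt1 with Wnt10a 2.34%. In the Sham libraries 1 to 3, Wnt1 and Wnt10a held 2.60, 1.53 and 5.06% of the ligand FPKM. In OVX they held 0.488, 0.772 and 0.644%, and in the treated group 2.94, 2.24 and 4.73%. The OVX shares were all below those of the other groups, which follows from how these genes were chosen.

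**Figure D2:**
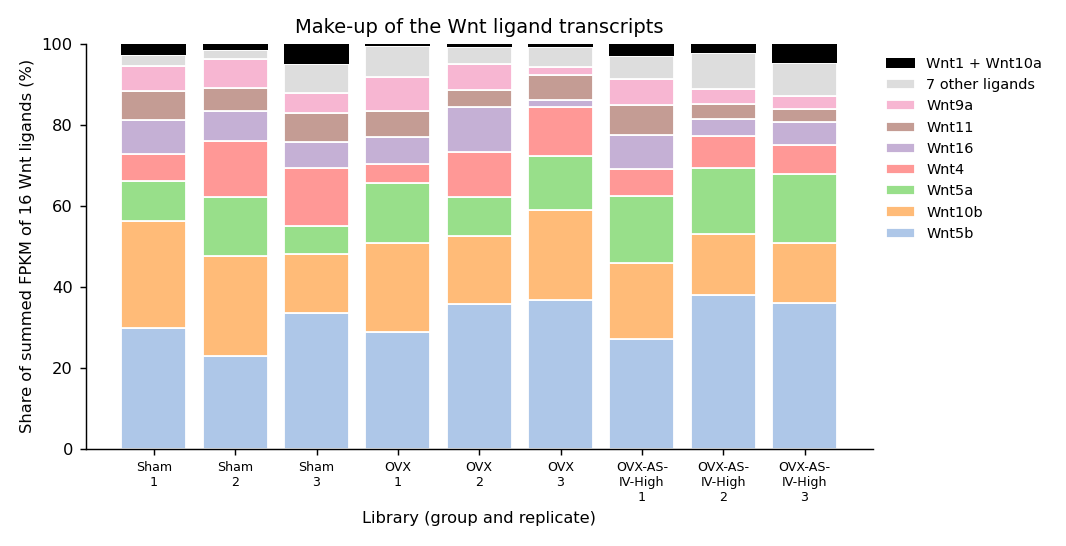
Share of the summed FPKM of 16 Wnt ligand genes (%) in each library, stacked by ligand with Wnt1 and Wnt10a together in black at the top. The black part is under 1% in the OVX libraries and between 1.53 and 5.06% in the others, and Wnt5b is the largest part in 8 of 9 libraries.

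Wnt1, which acts through β-catenin and is mutated in an inherited form of brittle bone, was counted 24, 7 and 12 times in the Sham libraries. OVX libraries held 3, 3 and 2 counts and treated libraries 17, 3 and 20. All OVX libraries were below all Sham libraries, while treated replicate 2 was level with OVX. A count of 3 has an exact 95% Poisson interval of 0.619 to 8.77 and a count of 24 one of 15.4 to 35.7, which cover counting error only. Summed over a group and divided by the summed library sizes, Sham was 5.55 times OVX (counting interval 2.58 to 13.7, from 43 and 8 counts) and the treated group was 4.96 times OVX (2.29 to 12.3, from 40 and 8). The treated group was 0.893 times Sham (0.566 to 1.41). Without Sham replicate 1 the last ratio was 1.34 and the first was 3.70. The intervals of these ratios pool the animals of a group and leave out the spread between them. Since Wnt1 was chosen for being lower in OVX than in both other groups, those against OVX are no test of it. The choice also bears on the ratio of the treated group to Sham, since it needed both to stand above OVX.

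Wnt10a, a ligand of β-catenin signalling known for tooth, hair and skin appendage development, was counted 12, 14 and 50 times in Sham. It was counted 2, 10 and 5 times in OVX and 18, 24 and 42 times in the treated group. Both other groups lay wholly above OVX, and Sham replicate 3 stood above the other Sham libraries. The ratio of Sham to OVX was 4.62 (counting interval 2.70 to 8.34), and it was 2.38 without Sham replicate 3 and 7.45 without OVX replicate 2. The ratio of the treated group to OVX was 4.90 (2.89 to 8.81), and 7.91 without OVX replicate 2. The treated group was 1.06 times Sham (0.769 to 1.47), and 2.06 times without Sham replicate 3. As for Wnt1, these intervals leave out the spread between animals, and those against OVX are no test. The choice bears on the ratio of the treated group to Sham here too. Across the 9 libraries the log2 CPM of Wnt1 and Wnt10a (counts per library size, on a log scale) had a Pearson r of 0.59 (Spearman rho 0.48), and an r of 0.00 once each value was taken from its group mean. That correlation is a description, since both genes were chosen for the same pattern across the groups.

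Both genes lie next to another Wnt gene in the rat genome. In RefSeq's gene order Wnt1 follows Wnt10b on chromosome 7, and Wnt10a follows Wnt6 on chromosome 9. Wnt10b, known for favouring osteoblasts over adipocytes, had 342, 314 and 162 counts among the Sham libraries, 210, 257 and 222 after OVX and 207, 165 and 178 with treatment. Its OVX values lay inside the Sham range, of which Sham replicate 3 was the low end, and its treated values lay below OVX. Wnt6 had 16, 7 and 19 counts among the Sham libraries, 17, 18 and 10 after OVX and 12, 18 and 15 with treatment, and all its groups overlapped. Its log2FC was 0.03 in OVX vs Sham (95% interval -1.02 to 1.09) and 0.02 in treated vs OVX (-1.02 to 1.07). At these low counts the intervals hold changes of about the size that called a gene here, so they do not show that Wnt6 stayed level. Wnt9a also has a Wnt neighbour, Wnt3a, which was not analysed here.

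**Figure D3:**
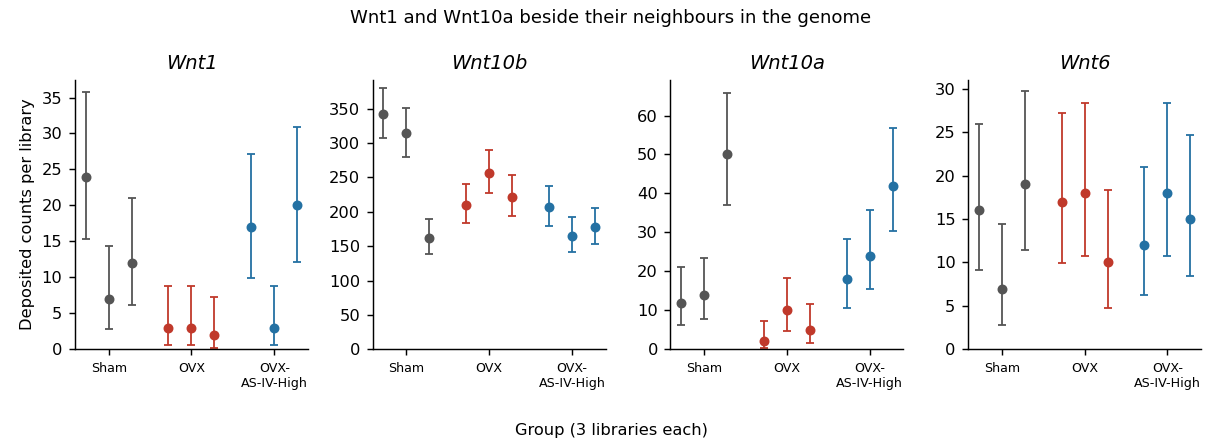
Deposited counts per library of Wnt1 and its neighbour Wnt10b, and of Wnt10a and its neighbour Wnt6, in Sham (grey), OVX (red) and OVX-AS-IV-High (blue), with exact 95% Poisson intervals as bars and a separate linear axis from 0 for each gene. The OVX libraries sit lowest for Wnt1, level with 1 treated library at 3 counts, and lowest for Wnt10a, whereas those of Wnt10b and Wnt6 lie within the range of the other groups.

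The more abundant ligands were then compared between groups by edgeR's quasi-likelihood test, in a fit of 16874 genes and all 9 libraries. A gene was called where the unadjusted p was under 0.05 and the absolute log2 fold change (log2FC) over 1. A log2FC over 0.58 was tried as an alternative. In OVX vs Sham, 3.11% of all genes were called in either direction, and 23.3% had groups that did not overlap. In treated vs OVX these shares were 0.830% and 12.7%, and in treated vs Sham 3.15% and 19.9%. In this fit no gene (0.00%) had an adjusted p under 0.05 in any of the comparisons, although 2775, 1089 and 2978 genes had an unadjusted p under 0.05. An edgeR fit with libraries paired by replicate number gave 21, 0 and 58 genes with an adjusted p under 0.05. DESeq2 gave 834, 37 and 1009 such genes. The comparisons share libraries, so their values are set side by side and not as independent evidence.

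Of the 9 ligands tested, 2 were called lower in OVX vs Sham and 2 higher in treated vs OVX. In both cases they were Wnt1 and Wnt10a, which were selected on those comparisons, so nothing is read from these counts. Among the other 7, edgeR called 0 in each of the 3 comparisons, and DESeq2 called 0 as well. Their unadjusted p was under 0.05 for 0, 0 and 1 of 7 by edgeR, and for 0, 0 and 2 by DESeq2. Their median log2FC was -0.25 in OVX vs Sham, -0.23 in treated vs OVX and -0.62 in treated vs Sham, against -0.01, -0.02 and -0.01 over all genes. Groups did not overlap for 1, 2 and 1 of the 7.

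**Figure D4:**
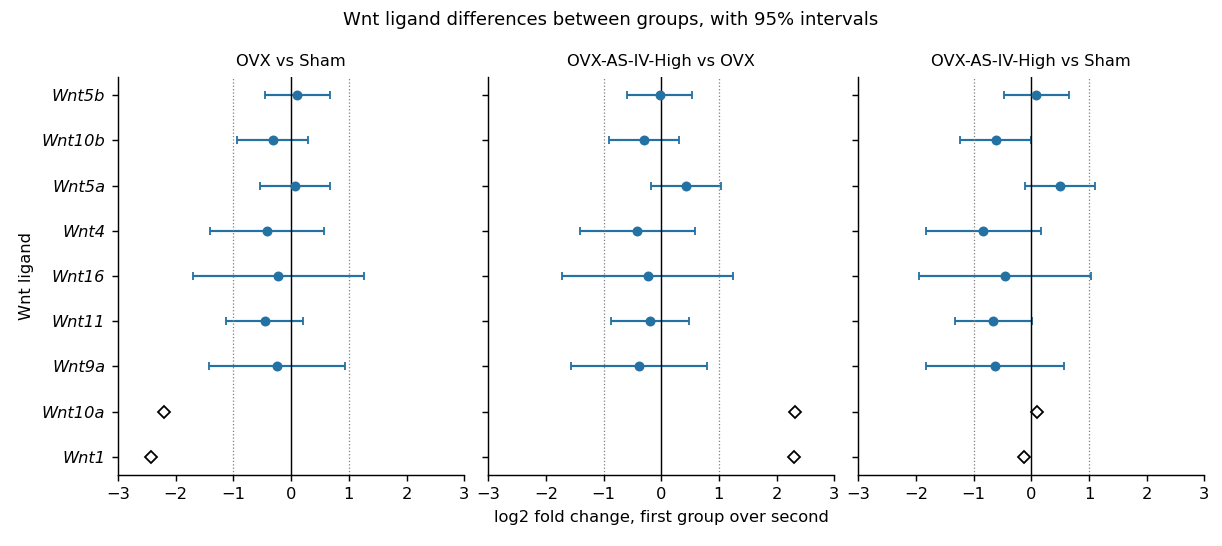
Log2 fold changes of the 9 tested Wnt ligands in the 3 comparisons, with 95% intervals from edgeR's fit as bars and dotted lines at -1 and 1. Wnt1 and Wnt10a are open diamonds without an interval because they were chosen on these comparisons, and the intervals of the other 7 include 0 in every panel except Wnt10b in OVX-AS-IV-High vs Sham.

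Wnt10b was the one ligand of the 7 whose interval left out 0. The treated group was lower than Sham by a log2FC of -0.62 (95% interval -1.23 to -0.01, adjusted p = 0.277), which did not reach the fold needed for a call. In FPKM it was 4.28, 4.03 and 2.03 in Sham and 2.48, 1.99 and 2.19 in the treated group, so Sham replicate 3 lay among the treated libraries. OVX libraries stood at 2.59, 3.12 and 2.70 FPKM. In OVX vs Sham the log2FC was -0.32, short of a call. With 1 library left out it ranged from -0.59 without Sham replicate 3 (unadjusted p = 0.012 by edgeR) to -0.16 without Sham replicate 1. In treated vs Sham that range was -0.89 to -0.45, with the same 2 libraries at its ends. Against OVX, the treated group had a log2FC of -0.30 (-0.91 to 0.31) with an adjusted p of 0.942, without overlap between the groups.

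Wnt4, which signals by both kinds of route and is expressed in bone and the female reproductive tract, was 1.08, 2.23 and 2.04 FPKM in Sham. Its values were 0.542, 2.09 and 1.47 in OVX and 0.882, 1.05 and 1.06 in the treated group. The treated libraries were all below Sham, by a log2FC of -0.84 (95% interval -1.83 to 0.16, adjusted p = 0.363 by edgeR). Without Sham replicate 1 that log2FC was -1.10 and passed the call. OVX replicate 1 held the lowest value of the 9, and the OVX libraries spanned the treated range and overlapped Sham.

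Wnt5a and Wnt5b are closely related ligands. Wnt5a was 1.59, 2.34 and 0.971 FPKM in the Sham libraries, 1.77, 1.83 and 1.64 after OVX and 2.21, 2.17 and 2.52 with treatment. All treated libraries were above all OVX libraries, with a log2FC of 0.43 (-0.17 to 1.03, adjusted p = 0.892 by edgeR). That fit shares its spread with Sham. Its unadjusted p by edgeR was 0.14, and 0.00817 in a fit of only these 2 groups (log2FC 0.44). With 1 library left out it ranged from 0.0322 without Sham replicate 3 to 0.268 without treated replicate 3. The log2FC stayed under the fold for a call. Wnt5a held between 16.4 and 17.0% of the summed ligand FPKM in the treated libraries and between 6.91 and 15.0% in the others. Wnt5b was 4.83, 3.69 and 4.70 FPKM in the Sham libraries, 3.38, 6.70 and 4.46 after OVX and 3.57, 5.03 and 5.34 with treatment. Its groups overlapped, and its log2FC was 0.11 (-0.46 to 0.67) in OVX vs Sham, -0.02 (-0.59 to 0.54) in treated vs OVX and 0.08 (-0.48 to 0.65) in treated vs Sham. These intervals leave out a change of 1 in either direction on the log2 scale.

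Wnt11, a ligand of routes that do not need β-catenin, was 1.16, 0.944 and 1.03 FPKM in Sham. It was 0.778, 0.791 and 0.758 in OVX, all below Sham, and 0.975, 0.489 and 0.509 in the treated group. The log2FC was -0.46 in OVX vs Sham (-1.13 to 0.21, adjusted p = 0.446 by edgeR) and -0.66 in treated vs Sham (-1.33 to 0.02, adjusted p = 0.296). Treated replicate 1 lay with Sham, and without it the second log2FC was -1.07 and passed the call.

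Wnt16 and Wnt9a varied widely within OVX. Wnt16 had 47, 126 and 12 counts in OVX, 81, 70 and 52 in Sham, and 69, 33 and 51 in the treated group. Wnt9a, a ligand of developing joints, had 120, 147 and 29 counts in OVX, 119, 133 and 80 in Sham, and 105, 63 and 54 in the treated group. For both genes OVX replicate 2 was the highest of the 9 libraries and OVX replicate 3 the lowest. Their log2FC in OVX vs Sham was -0.22 (-1.70 to 1.26) and -0.25 (-1.43 to 0.93), and without OVX replicate 3 it turned to 0.27 and 0.19.

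Across the 9 libraries the log2 CPM of Wnt16 and Wnt9a had a Pearson r of 0.90 (exact permutation p = 0.00187, two-sided). It was the only 1 of 21 pairs among the 7 ligands with a Benjamini-Hochberg adjusted p under 0.05 (0.0393). Spearman's rho was 0.73 (exact permutation p = 0.0311, adjusted p = 0.528), so the rank relation did not pass. Without the 2 libraries farthest from the median of Wnt16, OVX replicates 2 and 3, r was 0.68, and it was 0.90 on deviations from the group means. For the other 20 pairs, r ranged from -0.49 to 0.59.

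**Figure D5:**
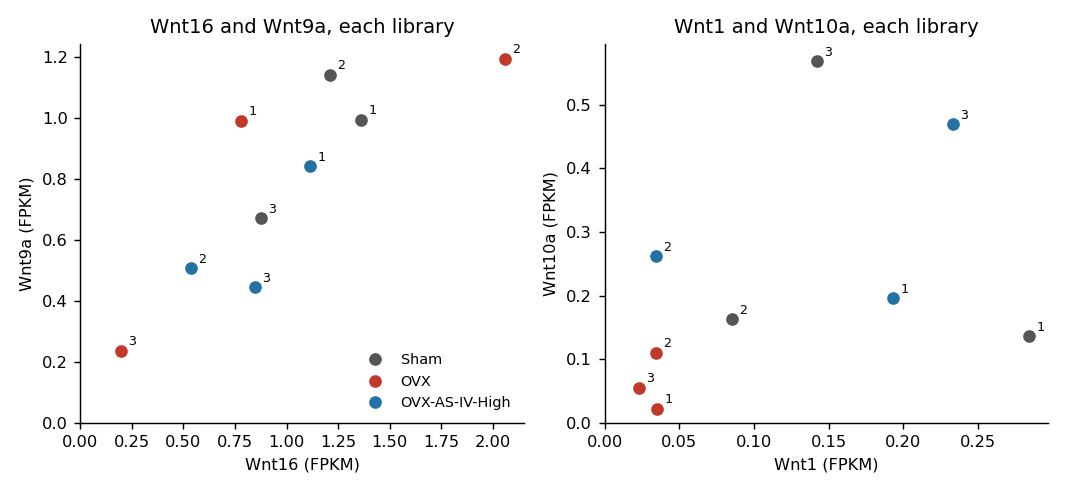
FPKM of Wnt9a against Wnt16 and of Wnt10a against Wnt1, 1 point per library with its replicate number, in grey for Sham, red for OVX and blue for OVX-AS-IV-High. OVX replicates 3 and 2 lie at the lower left and upper right for Wnt16 and Wnt9a, and the 3 OVX libraries lie together near 0 for Wnt1 and Wnt10a.

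Wnt2b, the lowest of the 10 by mean FPKM over all libraries though not within OVX, where Wnt1 was lower, had 0, 1 and 5 counts among the Sham libraries, 5, 4 and 1 after OVX and 4, 7 and 1 with treatment. A count of 0 has an exact 95% Poisson interval of 0 to 3.69. The groups overlapped, and the ratio of OVX to Sham, 1.61, had a counting interval of 0.531 to 5.40, so no difference was detectable at this depth. Among the 6 ligands outside the 10 that were in the tables, 2 passed the filter on low counts, Wnt2 and Wnt6. Wnt2 had 43, 59 and 143 counts among the Sham libraries, 156, 122 and 107 after OVX and 149, 233 and 267 with treatment. It was called higher in treated vs Sham (log2FC 1.35, 0.37 to 2.33, adjusted p = 0.172 by edgeR and 0.0344 by DESeq2), the reverse of the sign of Wnt10b and Wnt4 there. Its log2FC in OVX vs Sham was 0.58 (-0.40 to 1.55) and passed the call without Sham replicate 3 (1.25). Wnt9b, Wnt7b, Wnt8a and Wnt3 had at most 15, 13, 2 and 1 counts in any library.

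By a rule of likeness, the 3 tested genes with the highest Pearson r of log2 CPM over the 9 libraries were named for each ligand. They are the extremes of 16874 genes over 9 points that share a depth and tissue make-up, and carry no p. For Wnt10a they were LOC102553126 (0.951), Fos (0.931), a subunit of the AP-1 transcription factor, and LOC120093225 (0.903). For Wnt1 they were LOC120099935 (0.923), Rab3gap1 (0.896) and Pogz (0.889). For Wnt10b they were As3mt (0.983), an arsenic methyltransferase, Rgs16 (0.977), a regulator of G protein signalling, and Slc7a2 (0.965), a transporter of cationic amino acids.

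Wnt5b was most like Ucma (0.971), a secreted protein of cartilage, Gria3 (0.946), a glutamate receptor subunit, and Stc2 (0.946), a stanniocalcin. Ucma had its highest count of the 9 libraries, 1373, in OVX replicate 2 and its lowest, 269, in OVX replicate 1, the same libraries as Wnt5b. Wnt4 was most like Slc39a14 (0.978), a zinc transporter, Tph1 (0.960) and Kcnj15 (0.957), a potassium channel. Wnt11 was most like Gcgr (0.975), the glucagon receptor, Bicdl2 (0.971) and Zftraf1 (0.965). Wnt5a was most like LOC120100852 (0.923), Car3 (0.910), a carbonic anhydrase of muscle and fat, and Spertl (0.906). Wnt16 was most like Mb21d2 (0.915), LOC120096252 (0.910) and Pigl (0.910), and Wnt9a most like LOC102551907 (0.946), Tmprss2 (0.945), a membrane protease, and Agtr1a (0.920), an angiotensin II receptor.

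The other parts of the pathway gave few calls. Wls, which carries Wnt proteins to the cell surface and was the most abundant of 4 secretion genes, ranged from 10.2 to 16.5 FPKM, and edgeR called 0 of the 4 in each comparison. Of 4 R-spondins, secreted proteins that strengthen Wnt signals, Rspo3 was called lower in OVX vs Sham. It had 72, 95 and 80 counts among the Sham libraries, 34, 56 and 36 after OVX and 86, 60 and 92 with treatment, so OVX lay below both other groups. Its log2FC was -1.05 in OVX vs Sham (-1.74 to -0.36, adjusted p = 0.174 by edgeR and 0.0405 by DESeq2) and 0.95 in treated vs OVX (0.25 to 1.64, adjusted p = 0.652 by edgeR and 0.22 by DESeq2), the latter short of the fold for a call. Leaving out Sham replicate 2, OVX replicate 1 or OVX replicate 3 brought the first to -0.90, -0.93 and -0.96 and ended the call, and leaving out OVX replicate 2 or treated replicate 2 brought the second to 1.19 and 1.12 and made one. Rspo2 was called higher in treated vs Sham (log2FC 1.5, adjusted p = 0.210 by edgeR and 0.108 by DESeq2), with 21, 80 and 58 counts against 15, 14 and 25, and its call was lost without Sham replicate 1 (1.38) or 2 (1.38) or treated replicate 2 (1.09) or 3 (1.43).

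Of the 9 secreted antagonists tested, 1 was called, Sfrp1, a Wnt-binding decoy, in OVX vs Sham. It had 530, 438 and 843 counts among the Sham libraries, 1006, 2018 and 1550 after OVX and 659, 1492 and 1310 with treatment. Its log2FC was 1.26 in OVX vs Sham (0.47 to 2.06, adjusted p = 0.166 by edgeR and 0.0121 by DESeq2), and 0.89 in treated vs Sham (0.09 to 1.68, adjusted p = 0.244 by edgeR and 0.0965 by DESeq2). The second passed the call without Sham replicate 3 (1.2) or treated replicate 1 (1.16). Wif1, the most abundant antagonist, ranged from 28.3 to 63.9 FPKM and was not called.

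None of 19 receptors, 11 transducers and 12 Wnt target genes tested was called in any comparison, by edgeR or DESeq2. At an unadjusted p under 0.05, edgeR gave 1, 0 and 1 receptors in OVX vs Sham, treated vs OVX and treated vs Sham, 3, 1 and 2 transducers, and 0, 0 and 1 targets. DESeq2 gave 1, 0 and 1 receptors, 3, 1 and 3 transducers, and 1, 0 and 1 targets. Fzd4, the Dvl genes and Apc are named after their values were seen, as members with such a p. Fzd4, a Frizzled receptor, had a log2FC of -0.52 in OVX vs Sham (-0.87 to -0.17, adjusted p = 0.181 by edgeR). Dvl1, a Dishevelled protein, had -0.48 (-0.81 to -0.15, adjusted p = 0.187), while Dvl2 and Dvl3 had 0.25 and 0.29. In treated vs Sham, Fzd4 had -0.47 (-0.82 to -0.11, adjusted p = 0.186 by edgeR), without overlap between the groups. Dvl1 had -0.47 there (-0.80 to -0.13, adjusted p = 0.168 by edgeR), and its groups overlapped. Apc, another transducer, had 0.41 in treated vs OVX (0.12 to 0.70, adjusted p = 0.652 by edgeR), without overlap between the groups. In treated vs Sham it had 0.29 (0.01 to 0.58, adjusted p = 0.276 by edgeR). Nkd2, the most abundant of the target genes, had a log2FC of -0.42 in treated vs Sham (-0.67 to -0.18, adjusted p = 0.125 by edgeR and 0.0211 by DESeq2), under the fold for a call. The median log2FC of the targets was 0.22 in OVX vs Sham and -0.21 in treated vs OVX.

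Markers of bone cells were present in all libraries, as the label of the tissue says. Summed FPKM of 7 skeletal muscle genes was 4610, 3010 and 802 for the Sham libraries, 1600, 971 and 804 for OVX and 2320, 1050 and 281 in the treated group, with overlap between the groups. EdgeR called none of them, and DESeq2 called 1, Acta1, in OVX vs Sham. Their median log2FC was -1.01 in OVX vs Sham and -1.17 in treated vs Sham, with 0 of 7 above 0 in both. Over all genes it was -0.01 in both. Sham replicate 1 was the highest library for muscle and for Wnt1. Treated replicate 3 was the lowest for muscle and had the second highest count of Wnt1. Any relation between muscle and Wnt1 was not tested. Adipocyte genes (5) summed to 510 to 741 in Sham, 699 to 946 in OVX and 583 to 892 in the treated group, and 3 of 5 were called higher in OVX and 3 of 5 in the treated group, both against Sham. B lineage genes (5) summed to 347 to 466 in Sham, 633 to 671 in OVX and 411 to 612 in the treated group. All 5 had an unadjusted p under 0.05 and non-overlapping groups in OVX vs Sham, with log2FC between 0.38 and 0.73, and none was called. In treated vs OVX 3 of 5 had such a p by edgeR. The median log2FC there was -0.34, and 0 of 5 were above 0. Osteoblast genes (6) summed to 1130 to 2700, 2570 to 4330 and 1340 to 3630, and osteocyte genes (5) to 124 to 161, 86.3 to 201 and 90.7 to 142, in the same order of groups. Of these, Bglap (log2FC 1.21, adjusted p = 0.199 by edgeR) was called higher and Fgf23 (-1.35, adjusted p = 0.208) lower in OVX vs Sham. Phex (1.03, adjusted p = 0.216 by edgeR) was called higher in treated vs Sham. Most of the osteocyte list went the other way there, with a median log2FC of -0.38 and 2 of 5 above 0. DESeq2 called Fgf23 there too, at a mean FPKM of 2.135 in Sham and 1.053 in the treated group. Chondrocyte genes (6) summed to 292 to 668, 156 to 424 and 200 to 413, and marrow stroma genes (5) to 221 to 256, 234 to 274 and 213 to 311, and none of either list was called. Lepr (log2FC 0.67) and Kitlg (0.50), of the stroma list, had an unadjusted p under 0.05 and non-overlapping groups in treated vs OVX. The list as a whole did not move with them. Its median log2FC there was 0.03, with 3 of 5 genes above 0, and its most abundant gene, Cxcl12, had 0.03. Keratinocyte genes, of which 3 of 5 were in the tables, summed to at most 1.22. The part of these tissues in the ligand values was not tested.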

How the data were processed

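Bone RNA of 9 rats, 3 per group, was sequenced as poly(A)-selected, strand-specific paired-end libraries. The authors aligned reads with TopHat and Bowtie2 and estimated abundance with eXpress; the submitters' processing notes name the build mRatBN7.2. The deposited counts are whole numbers per gene, and how they became whole is not given in the sources used here. The deposited FPKM values scale the counts by transcript length and depth: in all 11928 genes with at least 100 counts the implied length was the same within 1% in every library.

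Counts were fitted with edgeR 4.0.16 (R 4.3.3; quasi-likelihood, TMM, filterByExpr with a minimum count of 10), all 9 libraries in 1 fit of 16874 genes, with Benjamini-Hochberg adjustment. The fits were tested on simulated data, for edgeR with 16667 genes of which 200 changed 3 fold in OVX vs Sham. By the rule for a call, edgeR called 186 of the changed genes and also 187 unchanged ones. At an adjusted p under 0.05 it gave 145 changed and 5 unchanged genes. DESeq2 1.42.0 and limma 3.58.1 (on log2(FPKM + 1)) served as alternatives, with RLE scaling, no filter, only the groups compared, a replicate block, each library left out and a log2FC threshold of 0.58. Deviations from the group means of OVX and OVX-AS-IV-High libraries of one number had correlations of 0.31, 0.158 and 0.13 across genes. Libraries of unlike number were not compared, so these values alone do not show a pairing. Between OVX and Sham the correlations were 0.2, -0.161 and 0.253, and between Sham and the treated group 0.314, -0.158 and 0.435. With Sham, replicate 2 thus went against a pairing. The main fit took no groups as paired. Correlations used log2 CPM (counts scaled to library size) with a prior count of 2. Exact intervals (95%) and permutation tests came from scipy 1.17.1.

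Named genes were the 10 ligands, the other ligands, genes of each pathway list called in any comparison, the most abundant of each list, the 3 genes most like each ligand, and genome neighbours. The members and lists were chosen with earlier results of these data known. The gene table used for names and order is of another build (GRCr8), so none of its gene coordinates is given; the promoter windows carry GRCr8 coordinates of their own, which are not those of the files' build.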

Additional observations from a re-analysis of the deposited data

How the results depend on the processing

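Treated stands for OVX-AS-IV-High. Of 187 log2FC values of the 9 tested ligands under the alternatives that kept all libraries, 177 kept their direction and side of the threshold (for Wnt1 and Wnt10a, moved by less than the spread of replicates). The 2 ligands called in OVX vs Sham became 1 in a fit of only the 2 groups (Wnt10a, since Wnt1 did not pass its filter), 0 by limma on log2(FPKM + 1) and 1 on log2(FPKM + 0.1). In treated vs OVX the 2 became 1, 0 and 1 under the same alternatives. Wnt1 and Wnt10a were selected on these comparisons, so whether their calls and values held, here and below, is a description. Nothing is read from it. In treated vs Sham, where none was called, 1 (Wnt10b) passed at an absolute log2FC over 0.58. With each library left out in turn the counts ranged from 1 to 2, from 1 to 2 and from 0 to 1. Wnt1 was not called in OVX vs Sham without Sham replicate 1, nor in treated vs OVX without OVX replicate 3 or treated replicate 3. Wnt10a was not called in OVX vs Sham without Sham replicate 3 or OVX replicate 1.

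With the pseudocount of 1 on FPKM, the log2FC of Wnt1 was -0.18 and 0.16 in the first 2 comparisons and that of Wnt10a -0.26 and 0.30, since a pseudocount above the level of a gene shrinks its fold. With 0.1 they were -0.98 and 0.85, and -1.13 and 1.31. In treated vs OVX, Wnt16 turned to 0.08 with the replicate block and to 0.12 by limma on log2(FPKM + 0.1), and Wnt6 to 0.00 by limma on log2(FPKM + 1). The paired fit with the replicate block changed no count of ligands called. Over all genes it gave 705, 153 and 711 calls, against 525, 140 and 531 in the main fit. With it 21, 0 and 58 genes had an adjusted p under 0.05 by edgeR. By limma on log2(FPKM + 1), Wnt2 (0.45) and Rspo2 (0.10) in treated vs Sham and Rspo3 (-0.56) in OVX vs Sham were not called, nor with 0.1 were Rspo2 (0.59) and Rspo3 (-0.96). Where not stated, the cause was not tested.

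Leaving out 1 library turned the sign of small differences. In OVX vs Sham the log2FC ranged from -1.25 to 0.27 for Wnt16, from -0.20 to 0.44 for Wnt5a, from -0.18 to 0.31 for Wnt5b, from -0.63 to 0.19 for Wnt9a and from -0.26 to 0.32 for Wnt6. In treated vs OVX it ranged from -0.72 to 0.80 for Wnt16, from -0.80 to 0.01 for Wnt4, from -0.23 to 0.27 for Wnt5b and from -0.19 to 0.16 for Wnt6. In treated vs Sham it ranged from -0.02 to 0.23 for Wnt5b, from -0.24 to 0.34 for Wnt6 and from -0.23 to 0.07 for Rspo3. Counts of all genes called in the 3 comparisons, 525, 140 and 531, became 791, 274 and 769 with no filter, 75, 13 and 84 by limma on log2(FPKM + 1), 315, 80 and 353 with 0.1, and 1174, 369 and 1167 at 0.58. With 1 library left out they ranged from 387 to 1064, from 141 to 219 and from 409 to 940, the highest of them without Sham replicate 3 and, for the last 2, without treated replicate 1. By CPM, which favour long transcripts, Wnt5a was first, Wnt5b the second and Wnt10b the third. For Wnt1, Wnt10a and Wnt2b the low counts limit what can be seen.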
